A study of Arabidopsis thaliana with 6 samples.

Results

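Gibberellins are plant hormones that promote stem and organ growth. Their level is set by enzymes that make the active forms and enzymes that inactivate them, and they act by binding soluble receptors, which then bind DELLA proteins, the growth repressors of the pathway, and mark them for destruction. In floral buds this pathway is known for promoting the growth of petals and stamens. The genes described here are 9 of 27444 nuclear protein-coding genes: GA20OX1, GA20OX2 and GA3OX1 of the late steps of synthesis, GA2OX1, GA2OX2 and GA2OX6 of inactivation, and the receptor genes GID1A, GID1B and GID1C. Peaks were taken for these genes where their summit lay in the gene or within 3000 bp of either end, which gave 17 of 6890 peaks.

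The peaks came from chromatin immunoprecipitation and sequencing of JAGGED (JAG), a zinc finger protein needed for the growth of lateral organs such as petals. The 3 JAG-GFP samples carried a genomic JAG fusion to green fluorescent protein, driven by JAG's own promoter (pJAG), in the jag-2 mutant. The 3 wild-type samples were L-er plants without the tag, so tagged and control plants also differed in their JAG allele. All samples were inflorescence tips with unopened buds only, in which many organs and cell types are pooled, and the labels do not give the number of transgenic lines.

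There was 1 peak list for each replicate number, called here lists 1, 2 and 3, with 2620, 2143 and 2127 peaks. Each peak has a summit, its highest position, and a score by the authors, for which the labels state neither scale nor threshold. The lowest scores of the lists were 1.86, 1.89 and 1.87 and the medians 2.04, 2.08 and 2.12. The score is therefore given with its percentile within its own list, where the median peak stands at about 50. Scores have 2 decimals, so up to 339 peaks of a list share a value and a percentile. Read counts and depth were not analysed here, and a gene without a peak may lie just under the authors' threshold. List 3 ends at position 23827070 on chromosome 1. GA2OX1 lies past that end and is covered by lists 1 and 2, and the other 8 genes by all 3. Whether replicates came from separate sets of plants is not stated, so the spread between lists may be technical.

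Across the 9 genes, 1 stretch of DNA near GA20OX2 held a peak of all 3 lists, and another near GA2OX1 held a peak of both lists that reach it. GID1A had a region of lists 1 and 3, GID1B had 2 regions of 2 lists each, 4 genes had peaks of a single list, and GID1C had none. A summit in every list that covers the gene was found for 3 of 9 genes (33.3%), GA20OX2, GA2OX1 and GID1B, against 7.08% of all protein-coding genes. At GID1B the lists did not mark the same place. Counting merged regions that hold every list reaching them left 2 of 9 genes (22.2%), against 6.89% of all genes. A summit in at least 2 lists was found for 4 genes, with GID1A added (44.4%, against 12.9%), and in at least 1 list for 8 genes (88.9%, against 26.0%). Without list 1 the last count was 5 of the 9 genes, against 19.7% of all genes.

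These shares carry no test, because the 9 genes were chosen when peaks near several of them were already known. By list, 7 of 9 genes had a summit in list 1 (background 17.4%), 3 of 9 in list 2 (14.1%) and 4 of 8 in list 3 (14.6%). The numbers of peaks were 9, 3 and 5.

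**Figure D1:**
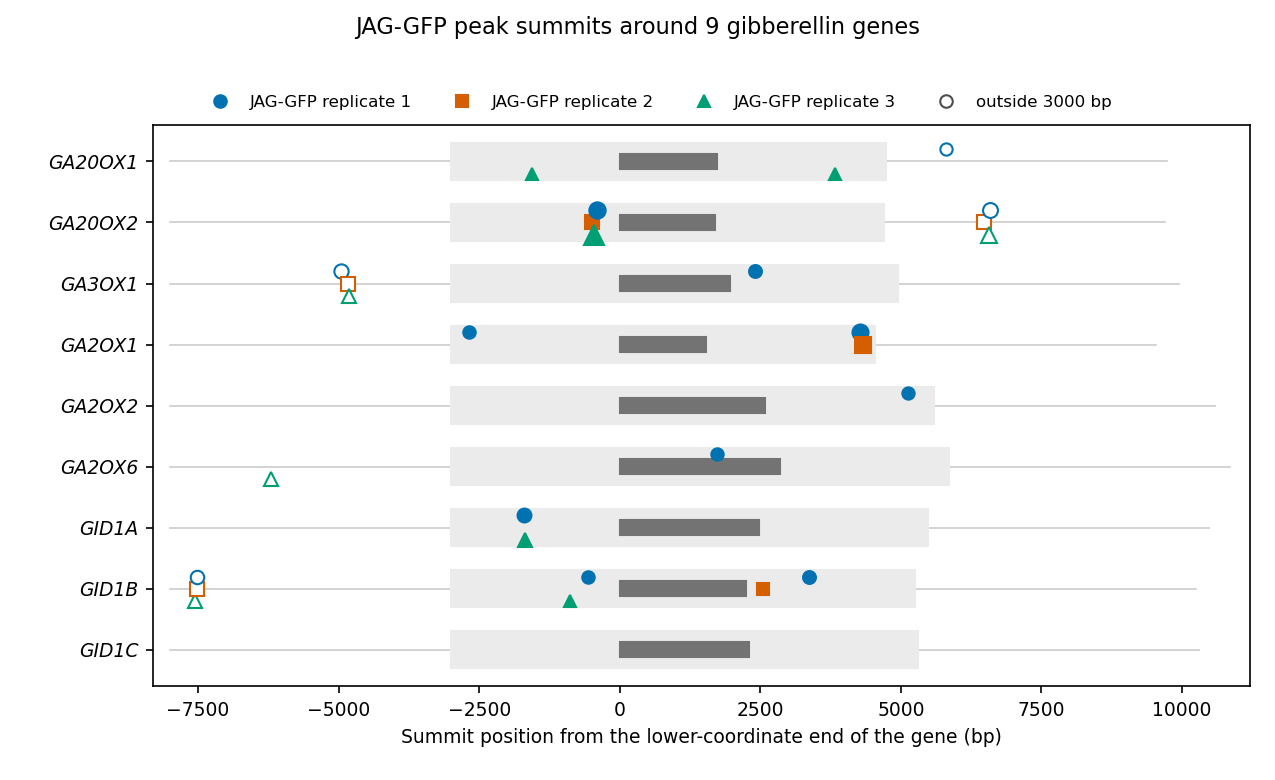
Summits of the 3 lists around each gene, with the position in bp from the gene's lower-coordinate end on the x axis. Dark bars are genes, pale bars the 3000 bp windows, marker size rises with the authors' score, and open markers lie outside the window. The 3 lists coincide beside GA20OX2, lists 1 and 2 at the far edge of the GA2OX1 window, and GID1C has no marker.

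Synthesis comes first in the pathway. GA20OX1 and GA20OX2 encode gibberellin 20-oxidases, which carry out successive oxidations that lead to the precursors of the active hormones. GA3OX1 encodes a 3-oxidase, which makes the active forms from these precursors.

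GA20OX2 (AT5G51810) had the only region of the set that held all 3 lists, although list 3 does not reach GA2OX1. On chromosome 5 its peak spanned 21054130 to 21055026 in list 1 (score 2.96), 21054590 to 21054984 in list 2 (2.58) and 21054499 to 21054927 in list 3 (3.75). List 3 was highest and list 2 lowest, with a mean of 3.10 ± 0.60 (SD, n = 3 lists, assuming a common scale). The percentiles were 96.1, 84.9 and 95.9. By mean percentile the region ranked 118th of 869 regions of all 3 lists.

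The 3 summits lay within 99 bp of each other, 397, 496 and 463 bp below the lower-coordinate end of GA20OX2 in lists 1, 2 and 3. No peak reached into the gene, the nearest edge being 153 bp away. GA20OX2 was the nearest protein-coding gene to all 3 summits, in a gap of 3109 bp between it and its lower neighbour. The strand of the gene was not used here, so this side is not named upstream or downstream. The peaks were 897, 395 and 429 bp wide, against list medians of 1032.5, 982 and 976 bp, and 338 bp (21054590 to 21054927) were common to all 3.

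GA20OX1 (AT4G25420), the other 20-oxidase gene of the set, had no such site. List 3 alone had summits near it, on both sides: 12988904 to 12989544 on chromosome 4, with a summit 1565 bp below the gene (score 1.88), and 12994479 to 12995487, with a summit 2097 bp above it (score 1.90). These stood at percentiles 2.42 and 9.45, among the weakest of the list. In list 1 the nearest summit was 4074 bp from the gene, with a score of 1.88, and in list 2 it was 9988 bp away.

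GA3OX1 (AT1G15550) had a peak in list 1 only, on chromosome 1 from 5346547 to 5347009. Its score of 2.04 was the median of the list (percentile 49.7), and its summit lay 452 bp above the gene's higher-coordinate end. It was 463 bp wide, narrower than most of the list (percentile 6.81 by width). The nearest summits of lists 2 and 3 lay 4831 and 4807 bp from the gene on the other side. There all 3 lists shared a region outside the window, with scores of 2.42, 2.13 and 2.40 in lists 1, 2 and 3, and its nearest gene was AT1G15530, at 380 to 528 bp.

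**Figure D2:**
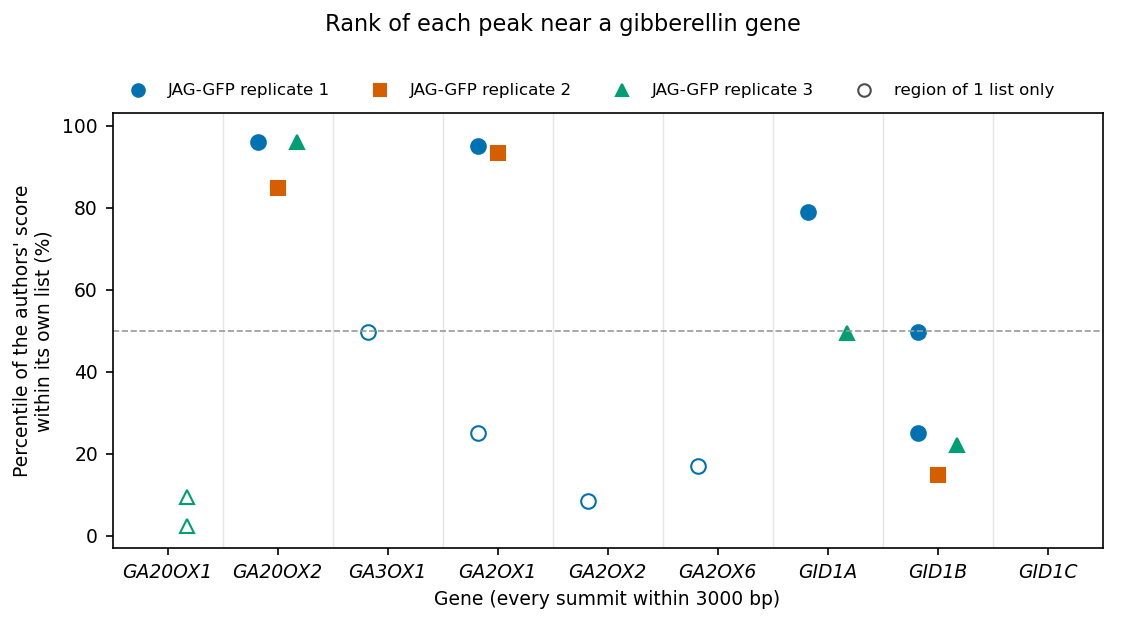
Percentile of the authors' score within its own list (y axis, %) for each of the 17 peaks near the 9 genes (x axis), by replicate. Filled markers belong to a region of 2 or 3 lists, open ones to a single list, and the dashed line marks 50. GA20OX2 and the higher GA2OX1 site stand between 84.9 and 96.1, and every single-list peak stands below 50.

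The inactivation genes encode 2-oxidases, which add a hydroxyl group that makes active gibberellins and their precursors inactive. GA2OX1 (AT1G78440) had the second strong site, on chromosome 1. The peak spanned 29513933 to 29516018 in list 1 (score 2.88) and 29515429 to 29516524 in list 2 (3.02). The mean was 2.95 ± 0.10 (SD, n = 2 lists), at percentiles 95.0 and 93.4. Of 114 regions common to lists 1 and 2 past the end of list 3, it ranked 11th by mean percentile.

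Both summits at GA2OX1 lay close to the edge of the window, 2728 and 2788 bp above the gene, and 60 bp apart. AT1G78450 was nearer, at 1161 and 1101 bp, and the summits had 3 protein-coding genes within 3000 bp. The peak of list 1 was 2086 bp wide and came within 833 bp of GA2OX1. List 1 had another peak on the lower side (29508120 to 29509314, score 1.93, percentile 25.1), with a summit 2682 bp from GA2OX1 but 72 bp from RIP4. Neither site had GA2OX1 as its nearest gene, and with a window of 1000 bp GA2OX1 had no summit.

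GA2OX2 (AT1G30040) and GA2OX6 (AT1G02400) each had a single weak peak, in list 1. At GA2OX2 it ran from 10542239 to 10542814 on chromosome 1 with a score of 1.88 (percentile 8.55), 2539 bp from the gene and 439 bp from AT1G30050. The nearest summits of lists 2 and 3 were 18215 and 26125 bp from GA2OX2. At GA2OX6 the summit lay in the gene, the only such case among the 17 peaks, in a peak from 487616 to 489441 on the same chromosome. Its score was 1.90 (percentile 16.9) and its width 1826 bp. Lists 2 and 3 had their nearest summits 17545 and 6195 bp away.

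The receptor genes encode 3 closely related proteins that bind gibberellin and then DELLA proteins. GID1A (AT3G05120) was marked on chromosome 3 by list 1 (1428158 to 1429141, score 2.31) and by list 3 (1428245 to 1430128, score 2.11). The percentiles were 78.9 and 49.6, with a mean score of 2.21 ± 0.14 (SD, n = 2 lists). The summits were 24 bp apart, at 1700 and 1676 bp below the gene, and AT3G05110 was nearer, at 944 and 968 bp. List 2 had no summit closer than 18818 bp to GID1A.

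GID1B (AT3G63010) had peaks on both sides, with scores at or below the median of their list. Below the gene, on chromosome 3, list 1 marked 23287053 to 23288901 (score 1.93) and list 3 marked 23287184 to 23288920 (score 1.95). Their summits were 563 and 889 bp from the gene, 326 bp apart. Above the gene, list 1 marked 23291350 to 23292898 (score 2.04), with an edge reaching into the gene, and list 2 marked 23291609 to 23292063 (score 1.91). These summits lay 1126 and 314 bp from the gene and 812 bp apart.

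All 4 peaks had GID1B as their nearest gene, and their percentiles were 25.1 and 22.0 below it and 49.7 and 14.8 above it. Thus each list had a summit within 3000 bp of GID1B, but lists 2 and 3 marked opposite sides. Within a window of 500 bp list 2 alone had one. Farther out, all 3 lists had a peak with scores of 2.20, 2.13 and 2.45 in lists 1, 2 and 3, 7519 to 7548 bp below GID1B and nearest to AT3G62990.

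GID1C (AT5G27320) had no summit within 8000 bp in any list. The nearest were 53044, 74045 and 9900 bp away in lists 1, 2 and 3, the last with a score of 2.62. The list alone does not show whether the signal there was absent or below the authors' threshold.

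**Figure D3:**
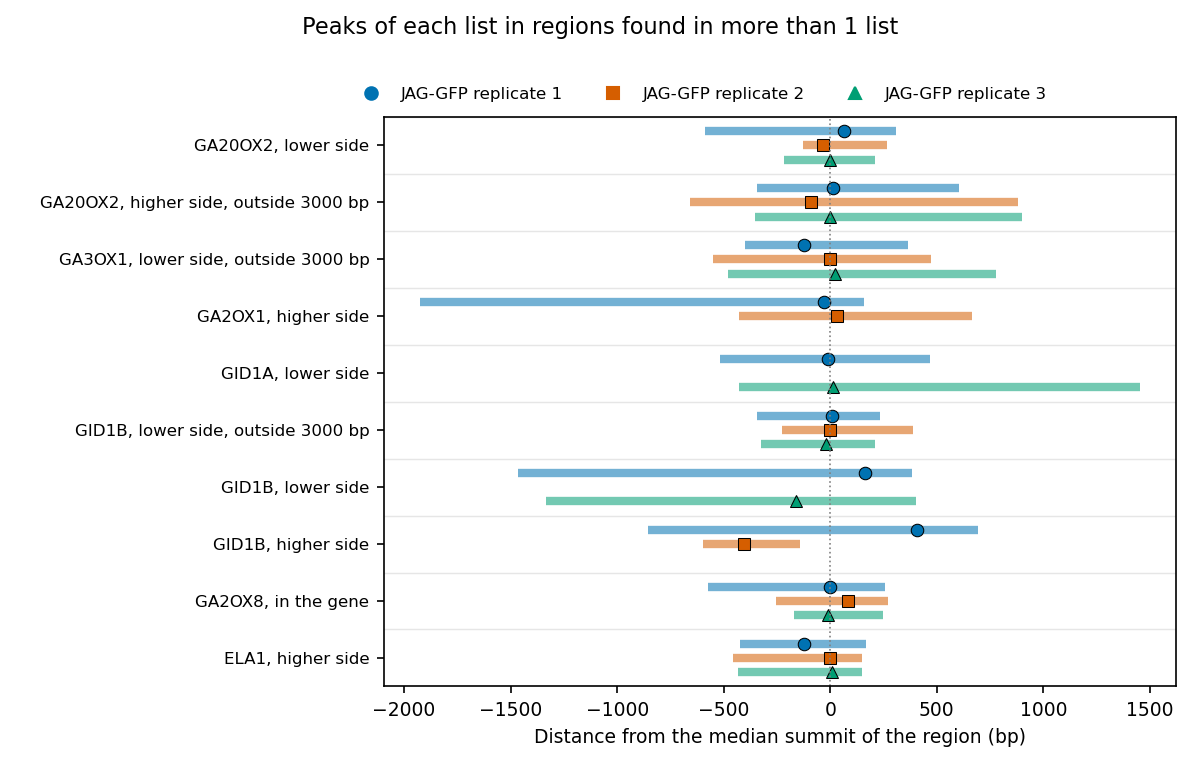
Extent (bars) and summit (markers) of each list's peak in the regions found in more than 1 list, as distance in bp from the region's median summit. At the lower GA20OX2 site the summits fall within 99 bp, whereas at the higher GID1B site they stand 812 bp apart.

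The highest scores of the set were in regions of more than 1 list, but not every such region scored high. The 11 peaks in regions of 2 or 3 lists had a median percentile of 78.9 (14.8 to 96.1), and the 6 peaks of a single list had 13.2 (2.42 to 49.7). Of the 11, 6 stood above the 50th percentile, at GA20OX2, GA2OX1 and GID1A. The peaks at GID1B lay in the range of the single-list peaks. Peaks of the same region are not independent, and no such comparison over all peaks is given here. All 17 peaks formed 11 merged regions, of which 1 held 3 lists, 4 held 2 and 6 held 1. Without list 2, 5 regions held every remaining list that reaches them, in place of 2. Past the end of list 3 only list 1 then remains. Both GA2OX1 regions were therefore counted on list 1 alone, including its single-list peak (score 1.93). The others, at GA20OX2, GID1A and below GID1B, held lists 1 and 3.

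The order of the genes by percentile was only partly stable between lists. In list 1 GA20OX2 stood above GA2OX1 (96.1 and 95.0), and in list 2 below it (84.9 and 93.4), so these 2 genes could not be ordered. GID1A stood below both in list 1, at 78.9, and below GA20OX2 in list 3, at 49.6 against 95.9. GID1B was lower than GID1A in both lists that marked both genes, at 49.7 in list 1 and 22.0 in list 3. GA3OX1 shared the value of GID1B in list 1, and GA2OX6, GA2OX2 and GA20OX1 stood lowest, at 16.9, 8.55 and at most 9.45 in the list where each was found. In list 2 GID1B stood at 14.8, below GA20OX2 and GA2OX1.

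Summits just inside and just outside the 3000 bp limit were far apart. The farthest inside was that of list 2 at GA2OX1, at 2788 bp, and the nearest outside was that of list 1 at GA20OX1, at 4074 bp. The next outside were the region of all 3 lists near GA3OX1 and one above GA20OX2. The latter had scores of 2.58, 2.30 and 2.65 in lists 1, 2 and 3, at 4776 to 4880 bp from GA20OX2 and at 1537 to 1641 bp from its nearest gene PGM. Of all 17 peaks, 11 had the gene of the set as their nearest gene.

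Another 27 genes of the pathway were examined with the same rule. They cover early synthesis, the other oxidases, further inactivating enzymes, the DELLA repressors, the F-box proteins that act on DELLA proteins, and SPY, an enzyme that modifies DELLA proteins. A summit in every covering list was found for 4 of 27 genes (14.8%, against 7.08% of all genes), namely GA2OX8, ELA1, RGA and RGL2. Another 7 genes had a summit in a single list, and 16 had none. A summit in at least 1 list was thus found for 11 of 27 genes (40.7%, against 26.0% of all genes). The 4 genes also had a region that held all 3 lists. Of all genes, 6.89% had a region that held every list reaching it.

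GA2OX8 (AT4G21200) encodes a 2-oxidase of another branch, which acts on precursors with a longer carbon skeleton. Its peaks lay inside the gene on chromosome 4, from 11304080 to 11304910 in list 1, 11304401 to 11304928 in list 2 and 11304487 to 11304904 in list 3. The scores were 2.53, 2.63 and 2.76, with a mean of 2.64 ± 0.12 (SD, n = 3 lists) and percentiles of 88.0, 86.3 and 85.1. The other 2-oxidase genes of this list were weaker: GA2OX4 had a score of 1.90 in list 1, and GA2OX3 and GA2OX7 had no summit. The GA2OX4 summit lay 1712 bp from that gene and 1379 bp from MYB112.

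ELA1 (AT5G24910) encodes a cytochrome P450 (CYP714A1) that inactivates gibberellins by another reaction. Lists 1, 2 and 3 had peaks on chromosome 5 from 8570278 to 8570868, 8570245 to 8570851 and 8570266 to 8570849. The scores of 2.81, 2.93 and 3.05 gave a mean of 2.93 ± 0.12 (SD, n = 3 lists), at percentiles of 93.7, 92.2 and 90.1. By mean percentile this region ranked 124th of the 869, close to the 118th rank of GA20OX2, and that of GA2OX8 ranked 216th. The summits were 209, 334 and 343 bp above ELA1, and all 3 peaks reached into the gene. Its neighbour ELA2 had no summit within 3000 bp.

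In early synthesis, GA2 and KAO2 had 1 peak each in list 1, with scores of 1.93 and 2.26, and GA1, GA3 and KAO1 had none. The KAO2 summit lay 293 bp from that gene but 1 bp from AT2G32450. List 3 does not reach GA2. Of the other 20-oxidase genes GA20OX3 had a peak in list 3 (2.17), and GA20OX4 and GA20OX5 had none. None of the other 3-oxidase genes, GA3OX2, GA3OX3 and GA3OX4, had a summit, although list 3 does not reach GA3OX2 and GA3OX4. The methyltransferase genes GAMT1 and GAMT2 had none either.

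Among the DELLA genes, RGA scored 2.32, 2.16 and 2.66 in lists 1, 2 and 3, and RGL2 scored 2.58, 2.28 and 2.18. By mean percentile their regions ranked 384th and 425th of the 869 regions of all 3 lists. The RGA summits lay 1547 to 1566 bp above the gene. GAI and RGL3 had a single peak each, with 1.92 in list 3 and 1.94 in list 2, and RGL1, which list 3 does not reach, had none. The F-box gene SLY1 had a peak of 1.93 in list 1, and SNE and SPY had none. The SLY1 summit lay 1701 bp from that gene but 202 bp from AT4G24204.

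**Figure D4:**
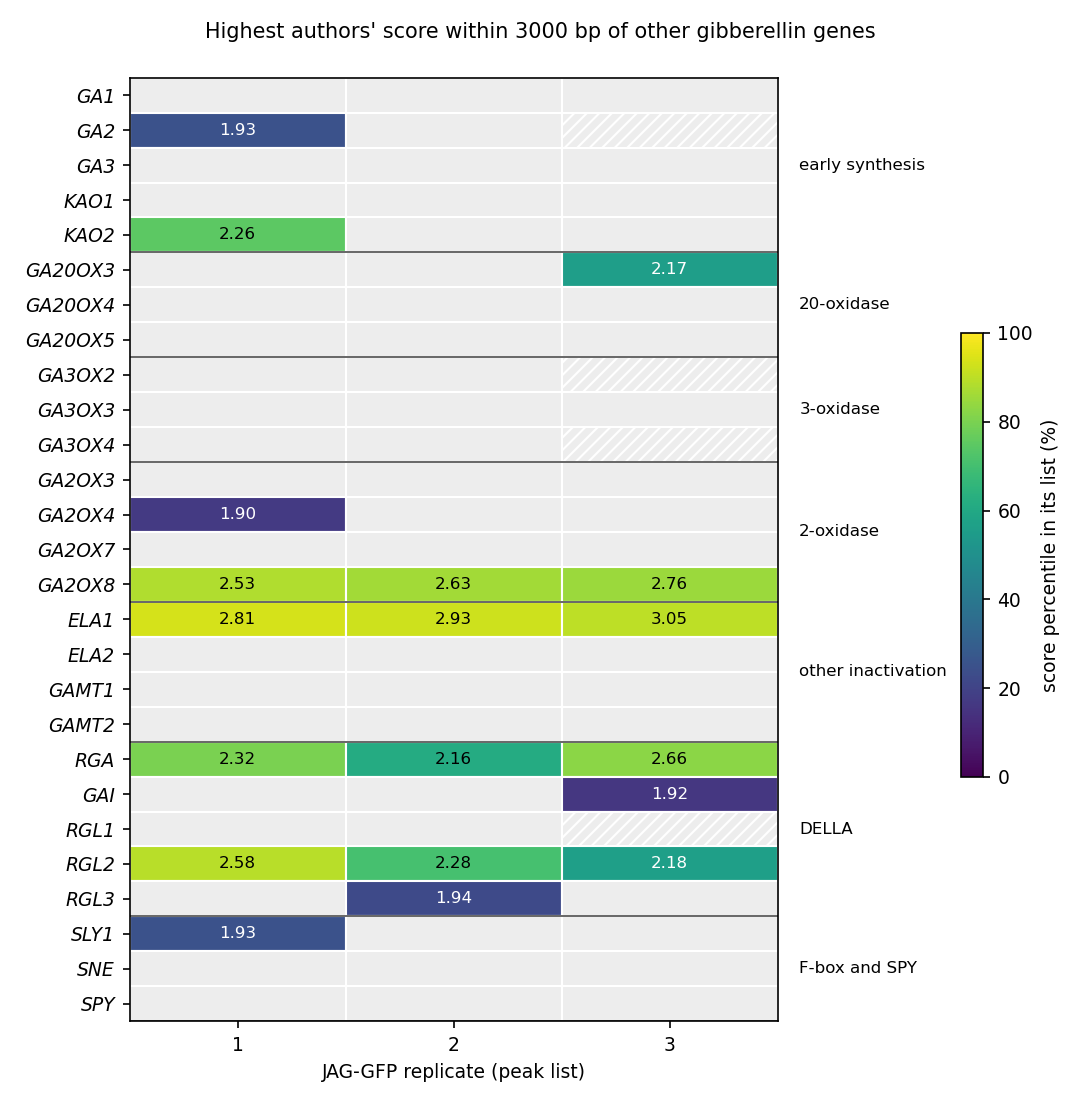
Highest authors' score within 3000 bp of each of the 27 other pathway genes (rows) in each list (columns), coloured by its percentile in that list. Grey cells have no summit, and hatched cells lie past the end of list 3. Rows filled in all 3 lists are GA2OX8, ELA1, RGA and RGL2.

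Over both sets, sites of all 3 lists within 3000 bp stood at the synthesis gene GA20OX2 and the inactivation genes GA2OX8 and ELA1. Lower-ranked ones stood at the DELLA genes RGA and RGL2, and none stood within 3000 bp of a receptor gene. The GA2OX1 site lies past the end of list 3 and was held by both other lists. Whether binding changes the expression of any of these genes was not analysed here.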

How the data were processed

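JAG-GFP and wild-type inflorescence tips were compared by the authors, 3 samples each, grouped by title. The submitters' processing notes name CASAVA 1.8 and the genome build TAIR10. Per the file headers, each deposited peak list gives other quantities (start, end, width and summit position in bp) and a score by the authors. No label or header names the peak caller, its threshold or the control of each list.

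Summits were assigned to genes of the RefSeq table of assembly TAIR10.1, whose distances but no coordinates are printed. All 36 listed loci were found. "Lower" and "above" refer to coordinates, since strand was not used. A gene was called in a list where a summit lay in it or within 3000 bp. Genes within 3000 bp of, or past, the last chromosome 1 peak of list 3 were not counted in that list. Peaks overlapping by 1 bp were merged into regions. Counts are set beside all 27444 nuclear protein-coding genes. The 9 genes and the lists were chosen with earlier results of these data known, so no test was made. Named genes are the 9 genes, pathway genes with a summit and the genes nearest to each summit, and the other pathway genes are named as having none. Calling and merging were tested on simulated data. Python 3.11.15, pandas 2.3.3, numpy 2.4.6 and matplotlib 3.10.9 were used. Alternatives were windows of 500, 1000 and 5000 bp, whole-peak overlap, nearest gene only, peaks at or above the list median, other merging rules, and each list left out.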

Additional observations from a re-analysis of the deposited data

How the results depend on the processing

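Of 52 alternative values, 39 stayed within 1.5 times the reported count or within 1 SD of the reported score, and 13 did not. The 52 include the share of all protein-coding genes in every covering list, which is not a result on the 9 genes. It is among the 13 with windows of 500, 1000 and 5000 bp, the nearest-gene rule and peaks at or above the list median. The mean scores with 1 list left out are among the 39. By construction they could not move by 1 SD, so they say nothing about stability. As reported, 8 of the 9 genes had a summit in at least 1 list (26.0% of all genes) and 3 in every covering list (7.08%). With a window of 1000 bp these were 4 (15.9%) and 2 (3.44%), and with 500 bp 4 (12.4%) and 1, GA20OX2 (2.22%). With 5000 bp the other pathway genes in every covering list went from 4 to 7 (ELA2, GAI and RGL1 added) and the 9 genes from 3 to 4, against 11.0% of all genes. The summits at ELA1 lie within 5000 bp of its neighbour ELA2 and then count for both genes. Counting only the nearest gene gave 5 of the 9 genes in at least 1 list (13.2% of all genes) and 2 in every covering list (3.25%). Peaks at or above the list median gave 5 (13.7%) and 2 (3.85%), with GID1B no longer in every list. Leaving out 1 list at a time gave 5 to 8 genes in at least 1 list, the lowest count without list 1. It gave 2 to 5 regions near the 9 genes held by every remaining list that reaches them. The highest count of regions, without list 2, includes the GA2OX1 regions, which list 1 alone then reaches. GA20OX2 stayed called in every covering list under all 9 alternatives to its call, but most of these could not have removed it. A wider window, whole-peak overlap or a left-out list keeps any gene that was called in every list. The windows of 500 and 1000 bp keep GA20OX2 because its summits lay within 500 bp of it. By construction, a window changes the area searched, the nearest-gene rule the genes a summit counts for, the score limit the peaks admitted, and a left-out list the number of lists required. No other cause was tested. No paired analysis was possible because each list already is the authors' result for a replicate number and no test was made. Depth was not analysed here, so no detection limit can be given.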

Other observations

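The regions with score percentiles closest to a given gene's were looked up, as a description. They were sought among regions of all 3 lists for GA20OX2 and GID1B, and among the 1178 other regions held by lists 1 and 2 for GA2OX1. For GA20OX2 the nearest genes were AT1G33250, FD and AT4G13710, at 2.38, 2.92 and 2.94 percentile points. FD encodes a bZIP factor that acts in flowering with the florigen. For GA2OX1 they were AT5G10920, LPP4 and PLL5, at 0.381, 0.412 and 0.533 points. For GID1B, whose lists do not mark one place, they were AT2G16730, AT5G54940 and BRS1, at 8.94, 9.81 and 11.1 points.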
